A study of Mus musculus with 9 samples.

Results

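Transcription factors that set intestinal identity were followed in mouse jejunum as a group of 10 genes, namely the caudal homeobox genes Cdx1 and Cdx2, the nuclear receptors Hnf4a and Hnf4g, the zinc finger genes Gata4, Gata6, Klf4 and Klf5, the ETS gene Elf3 and the forkhead gene Foxa2. A member was taken from the array files as the probe whose gene symbol equals its name. This found 9 of the 10 members among 15674 named genes, and Hnf4a was found as probe 567485 under its older symbol Hnf4, so that all 10 members have exactly 1 probe each. The files name that probe as hepatic nuclear factor 4 and give no accession for it, which leaves its identity resting on the name.

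The arrays hold jejunal RNA of 9 male OF1 mice, an outbred stock, at an age of 7 weeks and in generation 3 of a feeding trial, with 1 mouse per array. Feed B was eaten by mice 7, 8 and 10, feed K by mice 1, 3 and 4, and feed G by mice 4, 8 and 11. What the letters stand for is not given in the labels, and no feed is treated here as the control. A 2 cm piece around the middle of the small intestine was used whole, so epithelium, muscle, connective tissue and lymphoid cells all gave RNA, and fewer cells of a type cannot be told apart from less RNA per cell. Mice were not randomized for the time of day at sampling.

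Cdx2 gives the gut endoderm its intestinal character, and Hnf4a with Hnf4g keeps enterocytes, the absorptive cells of the villus, differentiated. Gata4 is known to mark the proximal part of the small intestine and to fade towards the ileum, where bile acids are taken up. These factors bind together at promoters and enhancers of genes for brush border enzymes, lipid transport and sugar uptake, while the Krüppel-like factors divide labour along the crypt to villus axis, with Klf5 in proliferating crypt cells and Klf4 in differentiated cells, goblet cells among them.

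The sequences before the start sites are shown for Cdx2 and Hnf4a, because both sit at the top of this network and Hnf4a has 2 start regions that an array with 1 probe reports as 1 value. Of the 10 members, 5 were matched by symbol in the promoter table used here. The RefSeq sequences of build GRCm38.p6 run 5′ to 3′ on the strand of the gene and end at the base before the start site. Capitals mark matches, on either strand, to 5 motifs, whose shares are given over 32851 promoters of 250 bases. The motif AGATAA, for zinc finger factors of the Gata family, occurs in 9.99% of them. The motif TTTATG, for the caudal factors, occurs in 10.8%, and GTTAAT, a partial site of HNF1 factors, in 6.43%. The motif CCACCC, for Krüppel-like factors, occurs in 28.1%, and AGGAAG, for ETS factors, in 29.5%.
Cdx2, chr5:147307250-147307499, minus strand: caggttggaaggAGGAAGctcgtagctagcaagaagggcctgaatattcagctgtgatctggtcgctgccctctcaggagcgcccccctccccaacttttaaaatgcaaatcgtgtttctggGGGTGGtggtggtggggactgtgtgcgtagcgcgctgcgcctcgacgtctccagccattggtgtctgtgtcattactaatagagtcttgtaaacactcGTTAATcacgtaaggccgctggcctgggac
Hnf4a, upstream start region, chr2:163506607-163506856, plus strand: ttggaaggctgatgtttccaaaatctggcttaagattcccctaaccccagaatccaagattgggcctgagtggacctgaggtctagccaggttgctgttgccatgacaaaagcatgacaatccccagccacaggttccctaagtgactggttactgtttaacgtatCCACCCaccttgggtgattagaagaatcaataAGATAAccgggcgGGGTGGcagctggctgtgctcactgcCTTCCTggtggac
Hnf4a, downstream start region, chr2:163546905-163547154, plus strand: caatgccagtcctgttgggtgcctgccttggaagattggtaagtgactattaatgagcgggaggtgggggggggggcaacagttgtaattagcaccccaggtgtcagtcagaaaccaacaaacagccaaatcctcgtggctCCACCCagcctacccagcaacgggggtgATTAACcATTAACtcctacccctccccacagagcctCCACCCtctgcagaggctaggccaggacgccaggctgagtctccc
The window before Cdx2 holds 1 match to the HNF1 motif, 1 to the Krüppel-like motif and 1 to the ETS motif. The upstream region of Hnf4a holds 1 match to the Gata motif, 2 to the Krüppel-like motif and 1 to the ETS motif, and the downstream region holds 2 matches to the HNF1 motif side by side and 2 to the Krüppel-like motif. None of the 3 windows holds TTTATG on either strand. A match describes letters only and was not tested as a binding site.

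A probe counts as detected on an array when its signal-to-noise ratio, the signal over its own error, is 3 or more. Of the 10 members, 9 were detected on all 9 arrays, and no spot of a member carried a failure flag. The ratios were far above the limit for Klf5 (66.4 to 141), Elf3 (38.4 to 85.4), Klf4 (36.5 to 108) and Cdx2 (25.1 to 74.4). Cdx1, Hnf4a, Gata4 and Gata6 came closer to the limit, with lowest ratios of 4.87, 7.09, 7.10 and 8.09. Foxa2 was detected on only 4 arrays, those of mouse 8 on feed B, mice 3 and 4 on feed K and mouse 4 on feed G, and its ratio was between -0.1 and 7.18. Detection covered between 33.7% and 48.1% of the 33012 probes of an array. By feed it was 36.7%, 33.7% and 43.6% on feed B (mice 7, 8 and 10) and 42.1%, 47.6% and 41.2% on feed K (mice 1, 3 and 4). On feed G it was 46.4%, 48.1% and 46.6% (mice 4, 8 and 11), above all 3 arrays of feed B. The part of this in the differences between feeds was not tested.

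All values below are log2 signals after quantile normalization, a scale on which 1 unit is a 2-fold difference, and levels of different genes cannot be set against each other on it. The plot of single mice shows each member on an axis of the same length.

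**Figure D1:**
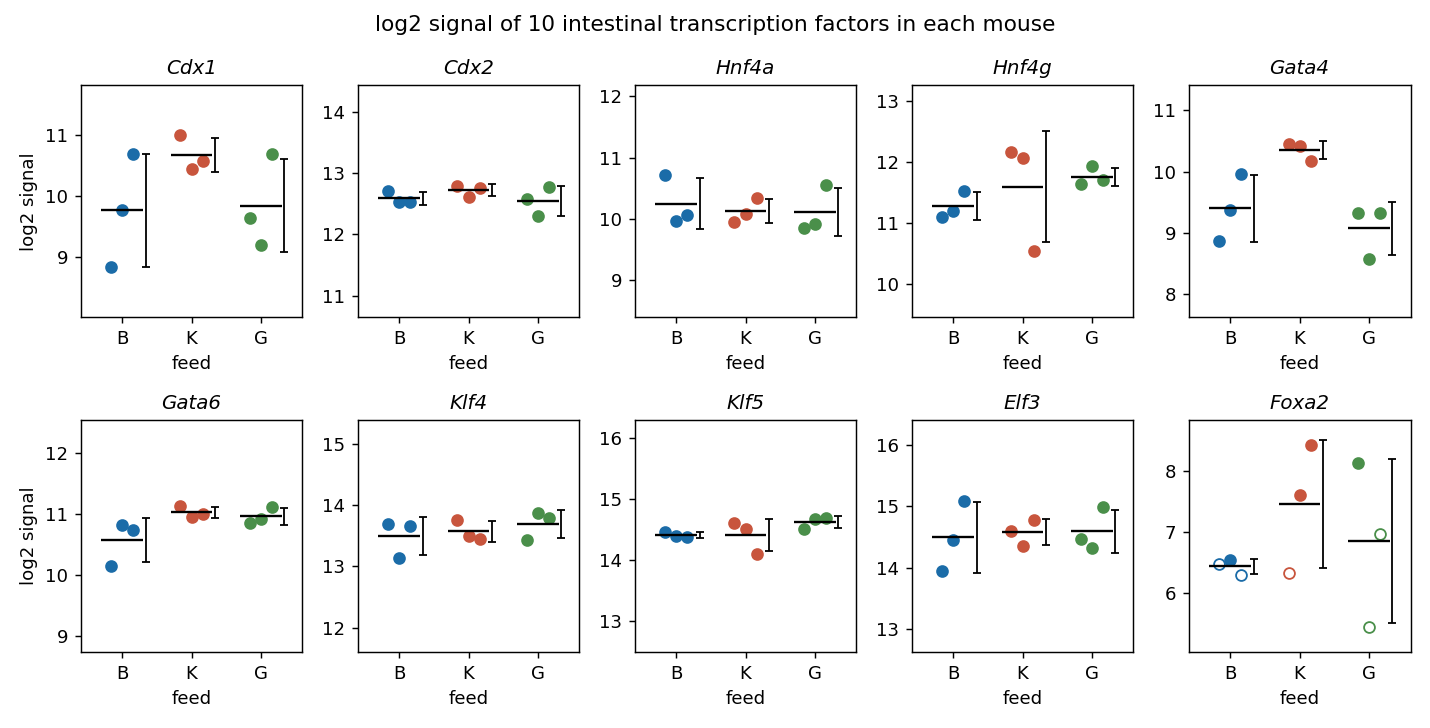
Log2 signal (vertical axis, spanning 3.8 log2 units in every panel) of each of the 10 members in the 3 mice on each of feeds B, K and G. Filled points passed the detection limit and open points did not, the horizontal line is the mean and the bar beside it the SD (n = 3); the 3 feed K mice lie above all others for Gata4 alone.

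The caudal factors differed widely in how alike the mice were. Cdx2, the master regulator of intestinal fate, read 12.71, 12.52 and 12.53 on feed B (mice 7, 8 and 10), 12.79, 12.61 and 12.77 on feed K (mice 1, 3 and 4) and 12.57, 12.29 and 12.78 on feed G (mice 4, 8 and 11). The feeds overlapped, and the highest and the lowest of the 9 mice were 1.41-fold apart. Cdx1, its crypt-enriched relative, read 8.84, 9.77 and 10.69 on feed B, 10.99, 10.45 and 10.58 on feed K and 9.64, 9.21 and 10.69 on feed G. Mouse 7 on feed B was the lowest and mouse 1 on feed K the highest, 4.44-fold apart, and the feeds overlapped here too. Feed K exceeded feed B by 0.91 ± 0.52 (SE) for Cdx1, with a 95% confidence interval from -0.27 to 2.09, and feed G fell short of feed K with a difference of -0.83 ± 0.52 (-2.01 to 0.35). Neither passed the test (limma, unadjusted p = 0.115 and 0.144). The difference between feeds K and B was 0.45 without mouse 7 on feed B and 1.37 without mouse 10 on feed B (limma, unadjusted p = 0.0233). That between feeds G and K was -0.52 without mouse 8 on feed G and -1.25 without mouse 11 on feed G (unadjusted p = 0.0408), and -1.02 relative to 6 epithelial genes, an alternative chosen after seeing the data (unadjusted p = 0.0383).

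Hnf4a, which holds the enterocyte programme, read 10.72, 9.97 and 10.06 on feed B, 9.95, 10.09 and 10.34 on feed K and 9.85, 9.92 and 10.56 on feed G. Mouse 7 on feed B and mouse 11 on feed G stood above the others, and the feeds overlapped fully. Its means per feed were 10.25 ± 0.41, 10.13 ± 0.20 and 10.11 ± 0.39 (SD, n = 3). Hnf4g, its partner with overlapping target sites, read 11.10, 11.20 and 11.53 on feed B, 12.16, 12.07 and 10.55 on feed K and 11.64, 11.93 and 11.70 on feed G. The feed K group held both of the highest mice and the single lowest one, mouse 4, while all 3 mice on feed G were above all 3 on feed B. That separation came with a difference of 0.48 ± 0.41 (-0.45 to 1.42), which did not pass (limma, unadjusted p = 0.269). Scaling of each array to its median gave 1.04, beside a median of 0.53 over all genes in feed G minus feed B, and the series table gave 0.83, beside 0.30, and neither value passed unadjusted.

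Gata4 had the largest difference between a pair of feeds among the 10 members, and the smallest p in the F test. Its log2 signal was 8.87, 9.38 and 9.96 on feed B, 10.46, 10.43 and 10.18 on feed K and 9.33, 8.57 and 9.32 on feed G. The 3 mice on feed K were above the other 6, whereas feeds B and G overlapped. In order, the means were 10.35 ± 0.15 on feed K, 9.40 ± 0.55 on feed B and 9.07 ± 0.43 on feed G (SD, n = 3), and feeds B and G did not differ beyond their spread. Feed K exceeded feed B by 0.95 ± 0.32 (0.21 to 1.69; unadjusted p = 0.0179), and feed G was below feed K by a log2 difference of -1.28 ± 0.32 (-2.02 to -0.54; unadjusted p = 0.00393), a ratio of 0.412. Feed G minus feed B was -0.33 ± 0.32 (-1.07 to 0.41; unadjusted p = 0.341), and this sign turned when each array was scaled to its median (0.22) or the series table was used (0.0062). Over the 3 feeds the limma F test gave an unadjusted p of 0.0100 and the exact permutation test over the mice 0.025, of which the smallest possible value is 0.00357. After Benjamini-Hochberg adjustment over 9652 genes these limma p-values became 0.773, 0.960, 0.902 and, for the F test, 0.729, so that Gata4 failed the correction in each, at rank 128 of all genes in the F test.

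Before normalization the 3 feeds overlapped for Gata4. Its signals there were 288, 420 and 970 on feed B, 1353, 2007 and 740 on feed K and 664, 551 and 803 on feed G. Mouse 4 on feed K then lay below mouse 10 on feed B and mouse 11 on feed G. In the series table mouse 4 on feed K (6.77) also lay below mouse 10 on feed B (8.15). The separation of the 3 feed K mice from all other mice thus exists after quantile normalization, and neither before it nor in the series table. From feed G alone (3.57 to 6.41) the feed K mice were still separate in the series table. Without mouse 7 on feed B the difference of feed K from feed B was 0.69 and no longer passed even unadjusted (limma, unadjusted p = 0.0634).

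Gata6, which overlaps with Gata4 in function and is also expressed in crypts, read 10.15, 10.83 and 10.74 on feed B, 11.13, 10.95 and 11.01 on feed K and 10.86, 10.91 and 11.12 on feed G. All mice on feeds K and G were above all mice on feed B, with mouse 7 on feed B far below the rest. The differences from feed B were 0.45 ± 0.22 (-0.05 to 0.95) for feed K and 0.39 ± 0.22 (-0.11 to 0.89) for feed G, and neither passed (limma, unadjusted p = 0.0709 and 0.111). The exact permutation test over the 3 feeds gave 0.025 for Gata6, and the limma F test gave an unadjusted p of 0.140. Without mouse 7 on feed B the differences were 0.24 and 0.18. With each array scaled to its median they were 0.88 and 0.95 (limma, unadjusted p = 0.0258 and 0.0181), beside medians of all genes of 0.41 and 0.53. The series table gave 0.75 and 0.69 (limma, unadjusted p = 0.0467 and 0.0628). Feeds K and B overlapped in the series table, where mouse 4 on feed K (12.75) lay below mouse 10 on feed B (13.06).

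Klf4, a factor of differentiated and goblet cells, read 13.69, 13.13 and 13.66 on feed B, 13.76, 13.50 and 13.45 on feed K and 13.43, 13.87 and 13.79 on feed G, with overlapping feeds. Klf5, which supports crypt proliferation, read 14.45, 14.39 and 14.37 on feed B, 14.60, 14.50 and 14.11 on feed K and 14.50, 14.67 and 14.68 on feed G. All feed G mice were above all feed B mice for Klf5, by 0.21 ± 0.19 on average (-0.22 to 0.64; limma, unadjusted p = 0.291), which was 0.76 with median scaling (unadjusted p = 0.0460) and 0.51 with the series table (0.176), beside the same medians of all genes. Mouse 4 on feed K was the lowest mouse for Klf5, as it was for Hnf4g. Elf3, an epithelium-specific ETS factor, read 13.94, 14.45 and 15.10 on feed B, 14.60, 14.35 and 14.78 on feed K and 14.47, 14.31 and 14.99 on feed G. Feed B alone spanned the whole range of Elf3, and the means were 14.50 ± 0.58, 14.58 ± 0.22 and 14.59 ± 0.36 (SD, n = 3).

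Foxa2, which opens chromatin in foregut and other endoderm, was near the limit of the assay. Its signals on the 4 arrays where it was detected were 6.55 for mouse 8 on feed B, 7.61 and 8.43 for mice 3 and 4 on feed K and 8.13 for mouse 4 on feed G. The other 5 readings were between 5.45 and 6.97 and not well above background. Feed K exceeded feed B by 1.02 ± 0.70 (-0.60 to 2.63; limma, unadjusted p = 0.186), a value that rests on 2 detected mice on feed K and 1 on feed B and was 0.54 without mouse 4 on feed K and 1.58 without mouse 1 on feed K (unadjusted p = 0.0573).

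**Figure D2:**
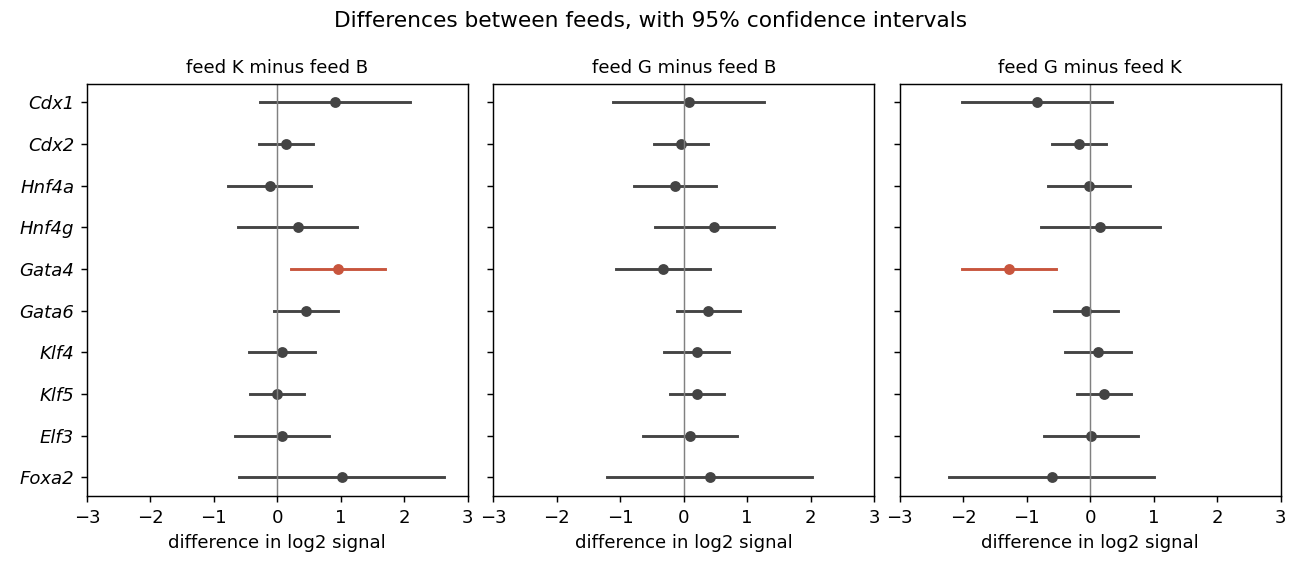
Difference in log2 signal (horizontal axis) of each member between each pair of feeds, as a point with its 95% confidence interval from limma. The interval excludes 0, drawn in red, for Gata4 in feed K minus feed B and in feed G minus feed K, before adjustment over all genes.

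Counted together, few members crossed any threshold. None of the 10 members passed an adjusted p of 0.05 in the limma F test, where 0% of all genes did, and 1 member, Gata4, had an unadjusted p under 0.05, as did 5.37% of the genes tested. In feed K minus feed B, 1 of 10 members had an unadjusted p under 0.05 (6.31% of all genes) and 2, Gata4 and Gata6, had groups that do not overlap (9.94%). In feed G minus feed B the counts were 0 (5.74%) and 3, Hnf4g, Gata6 and Klf5 (10.9%). In feed G minus feed K they were 1 (4.54%) and 1, both Gata4 (13.7%). The median difference of the members was 0.23, 0.15 and -0.04 in these 3 comparisons, beside 0.05, 0.06 and -0.01 for all genes. The 20 differences of members not given singly here were between -0.61 and 0.41, both ends being Foxa2. The 3 comparisons share mice, each group entering a pair of them.

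Uniformity over the mice is the property the study sought in reference genes, and here the members differed widely in it. The SD over the 9 mice was 0.16 for Cdx2, 0.18 for Klf5, 0.23 for Klf4, 0.29 for Gata6, 0.31 for Hnf4a, 0.36 for Elf3, 0.52 for Hnf4g, 0.68 for Gata4 and 0.75 for Cdx1. Among 5887 genes detected on all 9 arrays, 11.1% had an SD no higher than that of Cdx2 and 14.5% one no higher than that of Klf5. At the other end, 93.5% lay at or below Gata4 and 95.3% at or below Cdx1. Since dim spots vary more, each was also set among genes within 0.5 log2 of its own level, where the shares were 21.6% for Cdx2, 22.7% for Klf5, 94.1% for Gata4 and 96.4% for Cdx1.

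The median SD of the 9 members, 0.31, was close to the 0.29 of those 5887 genes. After quantile normalization Cdx2, Klf5, Klf4, Hnf4a and Gata6, 5 of these 9 members, stayed within a 2-fold range over the mice. This is a share of 55.6% beside 57.9% of the genes. In the series table, on its linear scale, Cdx2 alone of them did so, at 40.1 to 71.8. There Klf5 was between 112 and 263, Klf4 between 62.0 and 145, Gata6 between 7.90 and 22.6 and Hnf4a between 6.54 and 13.16. The share of all genes within a 2-fold range was not computed for the series table. The median SD of genes detected on all 9 arrays was 0.39 there, beside 0.29 after quantile normalization. The SD within feeds was 0.41 for Gata4, below its 0.68 over all mice, and 0.71 for Cdx1 beside 0.75.

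**Figure D3:**
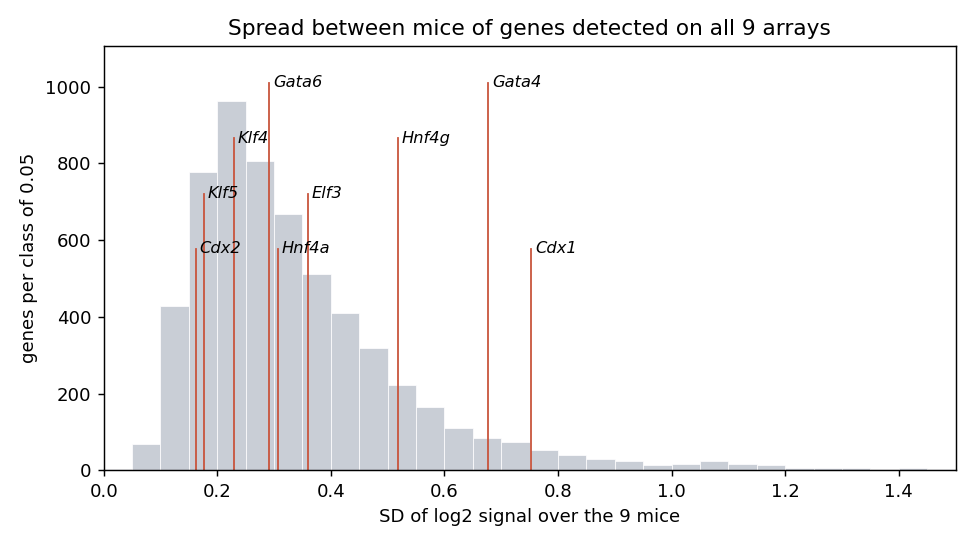
Number of genes (vertical axis) by SD of log2 signal over the 9 mice (horizontal axis, classes of 0.05) among genes detected on all 9 arrays, with the 9 members detected on all arrays marked by red lines whose heights carry no value. Cdx2 at 0.16 and Klf5 at 0.18 lie left of the peak, and Gata4 at 0.68 and Cdx1 at 0.75 lie in the right tail.

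The members did not vary as 1 block. Over the 9 mice the 36 pairs of the 9 members had a median Pearson r of 0.12, with 9 pairs above 0.5 and 0 below -0.5. The highest were Cdx1 with Gata4 (r = 0.84, exact permutation p = 0.00722; Spearman rho = 0.67, p = 0.0589), Hnf4g with Klf5 (r = 0.82, p = 0.00672; rho = 0.78, p = 0.0172) and Cdx1 with Elf3 (r = 0.79, p = 0.0105; rho = 0.82, p = 0.0108). After adjustment over the 36 pairs these exact permutation p-values were 0.126 for each r and 0.424, 0.310 and 0.310 for the rho values, and no pair passed. With the 2 mice farthest from the median of the first gene left out, r was 0.66, 0.61 and 0.54. Within feeds, after the mean of each feed was taken off, r was 0.86, 0.88 and 0.94. The related pair Hnf4a and Hnf4g had an r of -0.46 (exact permutation p = 0.209; rho = -0.43, p = 0.250), and Cdx1 with Cdx2 0.51 (p = 0.159; rho = 0.60, p = 0.0968).

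**Figure D4:**
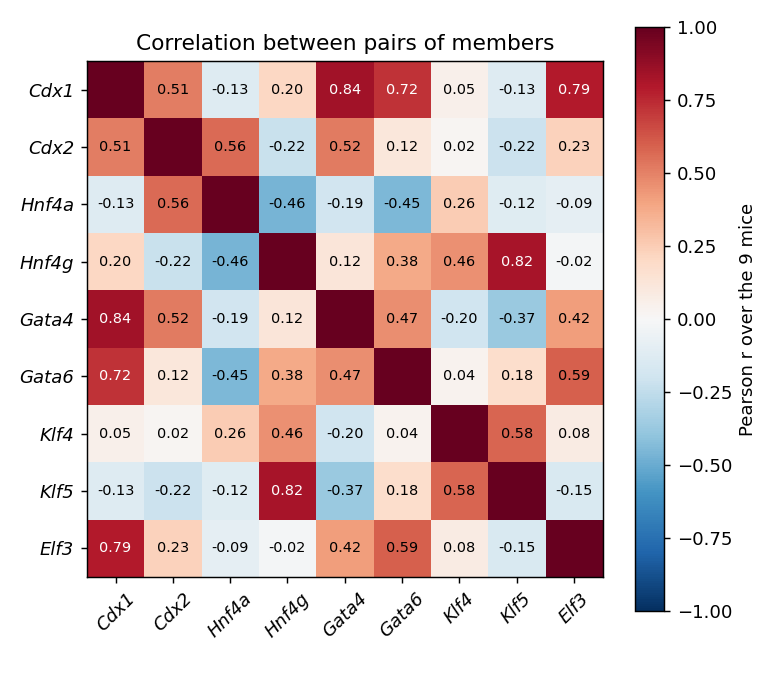
Pearson r of log2 signal over the 9 mice for each pair of the 9 members detected on all arrays (rows and columns are members, colour and number give r from -1 to 1). Cdx1 has r values of 0.84, 0.79 and 0.72 with Gata4, Elf3 and Gata6, Hnf4g has 0.82 with Klf5, and no pair is below -0.5.

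Among all genes detected on all 9 arrays, the pattern most like that of Cdx1 over the 9 mice was that of Pgd, a dehydrogenase of the pentose phosphate pathway (r = 0.98), and then Clptm1 (r = 0.98), with 2500001K11Rik at the opposite end (r = -0.95), and 50 of 5886 genes had an r over 0.9 with it. Hnf4g was closest to Oat (r = 0.96) and Otc (r = 0.95), enzymes of ornithine metabolism, and farthest from D2Ertd391e (r = -0.93). Gata4 was closest to Wbp2 and Mtx1 (r = 0.94 for both), with Dpp3 at the opposite end (r = -0.91). Gata6 was closest to D930014A20Rik (r = 0.97) and to the isocitrate dehydrogenase Idh1 (r = 0.96), Elf3 to Blcap (r = 0.95), Klf4 to 1600012F09Rik (r = 0.95) and Klf5 to Rgn (r = 0.94). Their opposite ends were 1810035L17Rik for Gata6 (r = -0.98), the kinase Lyn for Elf3 (r = -0.95), 0610025O11Rik for Klf4 (r = -0.93) and Sara2 for Klf5 (r = -0.92). For Cdx2 and Hnf4a 0 genes exceeded 0.9, and the closest were 2310065K24Rik (r = 0.87) and the sulfotransferase Ndst1 (r = 0.89), while Timp2 (r = -0.90) and BC035537 (r = -0.98) lay at their opposite ends. With 9 mice and so many genes, values of this size describe these arrays only.

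The piece of gut differed between mice in its regional markers. Fabp6, the ileal bile acid binding protein, read 15.81, 4.67 and 17.84 on feed B (mice 7, 8 and 10), 8.92, 12.19 and 11.81 on feed K and 8.10, 8.96 and 19.51 on feed G. Mice 7 and 10 on feed B and mouse 11 on feed G stood high, and the mean of the distal list (5 genes detected on at least 5 arrays: Fabp6, Slc10a2, Slc51a, Slc51b and Nts) was 13.43, 14.71 and 14.75 in them beside 10.55 to 12.36 in the other mice. Fabp6 had the widest range of the 5 genes and so weighed most in that mean. It was detected on 8 of the 9 arrays and Slc10a2 on 6, so some of their readings are near background. Slc10a2 did not set mouse 7 on feed B apart, at 9.46 beside 9.73 in mouse 4 on feed K. Slc51a, a bile acid exporter subunit, read 14.37, 14.35 and 14.46 on feed B, 13.68, 13.51 and 14.01 on feed K and 13.56, 13.31 and 14.50 on feed G, and was thus also high in mouse 8 on feed B, where Fabp6 was lowest. Neurotensin, Nts, read 11.90, 10.92 and 12.61, then 11.40, 12.15 and 9.86, then 11.59, 11.94 and 11.02, and was not raised in mouse 11 on feed G. The mean of the proximal list (4 genes: Fabp1, Slc40a1, S100g and Ada) was 11.15 to 11.80 on feed B, 11.51 to 11.69 on feed K and 11.26 to 11.39 on feed G. These genes went different ways. Slc40a1 was lower on feed K (9.39 to 9.50) than in the other 6 mice (9.62 to 10.43). Its feed K minus feed B difference was -0.62 (limma, unadjusted p = 0.0247, under 0.05 for 6.31% of all genes). Fabp1, S100g and Ada had their highest means on feed K. In the 3 mice with the high distal level, Gata4 read 8.87 and 9.96 (mice 7 and 10 on feed B) and 9.32 (mouse 11 on feed G). These values lay within the range of the other 6 mice (8.57 to 10.46). The r of Gata4 with the distal level was -0.00 (exact permutation p = 0.995; rho = -0.15, p = 0.708; -0.04 without mouse 10 on feed B and mouse 11 on feed G). Hnf4a had an r of 0.64 (exact permutation p = 0.0592; rho = 0.73, p = 0.0311), and 0.88 without the same mice, but neither passed after adjustment over the 27 relations computed (0.799 and 0.420). With each array scaled to its median both passed (r = 0.77 and rho = 0.87, adjusted exact permutation p = 0.0391 and 0.0203). Passing was not particular to Hnf4a in that setting, where 12 of the 27 relations passed by r and 6 by rho.

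Of those 27 relations between 9 members and the distal, epithelial and smooth muscle levels, 0 passed by Pearson's r and 1 by Spearman's rho. Elf3 rose with the mean of the 6 epithelial genes Epcam, Cdh1, Krt8, Krt18, Krt19 and Krt20 by rank (rho = 0.92, exact permutation p = 0.00131, adjusted p = 0.0354). Pearson's r was 0.67 (exact permutation p = 0.0385, adjusted p = 0.799), and 0.91 without mouse 7 on feed B and mouse 11 on feed G, the mice farthest from the median epithelial level. The epithelial level was between 15.97 and 16.16 in 8 mice and 16.67 in mouse 11 on feed G. The rho itself was 0.857 to 0.952 with any 1 mouse left out, 0.75 with each array scaled to its median and 0.783 with the series table. Its adjusted exact permutation p was 0.0308 without mouse 4 on feed G and 0.0603 to 0.289 without any other mouse, 0.0983 with median scaling and 0.0517 with the series table. By r the relation passed with median scaling (r = 0.88, adjusted p = 0.0202) and without mouse 11 on feed G (r = 0.94, adjusted p = 0.0208). With median scaling it was 1 of 12 relations that passed by r.

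**Figure D5:**
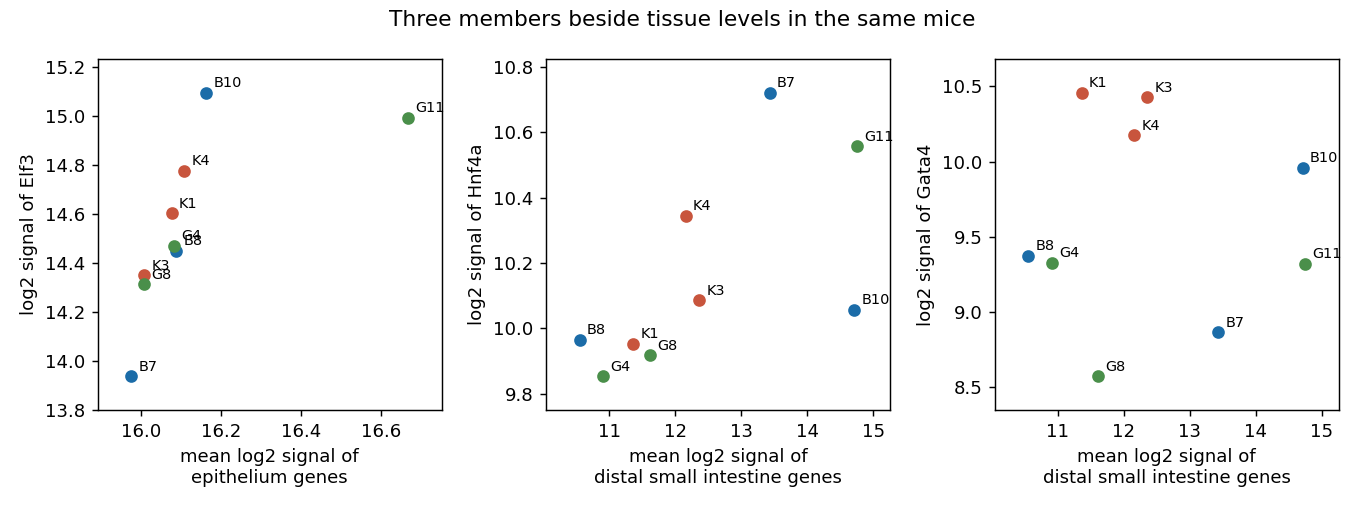
Log2 signal of Elf3, Hnf4a and Gata4 (vertical axes) against the mean log2 signal of 6 epithelium genes or 5 distal small intestine genes (horizontal axes), 1 labelled point per mouse, coloured by feed (letter) with the mouse number. Elf3 follows the epithelial level by rank (rho = 0.92), with mouse 11 on feed G far to the right, and Gata4 shows no trend with the distal level (r = -0.00).

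Marker lists of the other cells of the piece give the setting of the Gata4 values. For feeds B, K and G in turn, the epithelial level was 15.97 to 16.16, 16.01 to 16.11 and 16.01 to 16.67, and the smooth muscle level (5 of 6 genes) 13.20 to 13.36, 13.20 to 13.53 and 12.90 to 13.51, with full overlap. The B cell level (4 of 5 genes) was 9.40 to 10.27, 7.14 to 10.17 and 8.90 to 10.18, lowest in mice 1 and 3 on feed K at 7.37 and 7.14, which were also the highest mice for Gata4. Mouse 4 on feed K went the other way, with a B cell level of 10.17 and a Gata4 value of 10.18, above all mice on feeds B and G. The fibroblast level (5 of 5 genes) was 12.74 to 13.10, 12.14 to 12.81 and 12.16 to 12.88. Of the pancreatic genes with a probe, Pnlip was detected on 0 arrays and Ctrb1 and Cel on 1 each, while Cela1 was detected on all 9. The part of these cell types in the Gata4 values was not tested.

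Enterocyte genes known as targets of these factors were examined as a list of 24, of which 20 had a probe and 18 were tested. Their mean level was 15.85 to 15.97 on feed K, above the 15.40 to 15.77 on feed B and the 15.40 to 15.74 on feed G. Of single genes, 9.94% had groups that do not overlap between feeds K and B, and 13.7% between feeds G and K. These shares do not hold for a mean over 18 genes, for which none was computed, and the separation of the mean was not tested. In feed K minus feed B, 3 of 18 had an unadjusted p under 0.05 (6.31% of all genes), all higher, and 0 passed adjustment (limma), and the median difference was 0.31 beside 0.05 for all genes. Among them were the sodium glucose transporter Slc5a1 (1.14, unadjusted p = 0.00417) and the brush border protocadherin Cdhr5 (0.75, unadjusted p = 0.0189), both by limma. In feed G minus feed K, where 4.54% of all genes had such a p, 1 was lower, Cdhr5 (-0.60, unadjusted p = 0.0452), and the median was -0.32 beside -0.01. In feed G minus feed B, where 5.74% had one, Slc5a1 was higher (0.95, unadjusted p = 0.0109) and the surface antigen Gpa33 lower (-0.80, unadjusted p = 0.0422), again by limma, with a median of 0.13 beside 0.06. Fabp1 and Apoa4, lipid handling genes often used as readouts of Gata4 and Hnf4a, had feed K minus feed B differences of 0.47 (unadjusted p = 0.479) and 0.59 (unadjusted p = 0.0847) by limma.

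Other gut transcription factors formed a list of 24, with 21 on the array and 19 tested. Their median differences were 0.12, 0.31 and 0.04 in feed K minus feed B, feed G minus feed B and feed G minus feed K. Only Gata5, the third GATA factor of the gut, had an unadjusted p under 0.05, in feed G minus feed B (-0.64, limma, unadjusted p = 0.0422), where 5.74% of all genes had one, and 0 of 19 passed adjustment. Pdx1, a factor of the duodenum and pancreas, and Onecut2 were detected on 0 arrays.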

How the data were processed

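The authors deposited 1 scanner table per array, with the background-corrected and spatially normalized intensity of every spot, the SD of that intensity, a signal-to-noise score and a quality flag. Where the signal-to-noise score was under 1, the deposited signal equalled its SD. The series table that the authors deposited holds linear intensity values equal to the assay-normalized signal. The tool RMA is named in the submitters' processing notes, with no role given. Its part in these files is not given in the sources used here.

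After removal of spots flagged above 5000, the intensities underwent quantile normalization (arithmetic mean, 9 arrays) and log2 transformation, and probes of the same gene were averaged. Feeds were compared with limma 3.58.1 in R 4.3.3 over 9652 genes detected (signal-to-noise ratio of 3 or more) on at least 3 arrays, with Benjamini-Hochberg adjustment at 0.05. Exact permutation tests over mice were two-sided for correlations and ran in Python 3.11.15 with numpy 2.4.6 and scipy 1.17.1, and figures were drawn with matplotlib 3.10.9. The fits were tested on simulated data. Gene names were matched by symbol, then accession, then synonym. Levels of a list are means over its genes detected on at least 5 arrays.

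The genes named are the members, genes of the lists where a list is described, and for each member the most and least alike genes by Pearson r. The members and lists were chosen with earlier results of these data known. Nothing in the labels says that mice of a feed came from separate litters. A limma p-value weighs a difference against the spread between these mice, which limma moderates over all genes tested. With 3 mice per feed, the number of arrays limits the precision, and 3 against 3 cannot give a two-sided exact p below 0.1. All arrays carry the same series name in their headers, so no batch could be compared. The values of 1 gene of the enterocyte list are not reported here.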

Additional observations from a re-analysis of the deposited data

Results flagged for a closer look

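Gata6 had 1 mouse far from the rest. Mouse 7 on feed B read 10.15, and the nearest of the other 8 mice read 10.74, so this gap is 0.601 of the range over the 9 mice and passes the 95% limit of Dixon's ratio for 9 values. The signal-to-noise ratio of Gata6 on this array was 8.09, its lowest over the 9 mice but above the limit for detection. Mouse 7 on feed B was also the lowest of the 9 mice for Cdx1 and Elf3 and the highest for Hnf4a. The other 9 members gave ratios between 0.155 and 0.462. Chance flags about 1 in 20 such groups, and 10 members were examined.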

How the results depend on the processing

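In the F test and the 3 comparisons of feeds, no member passed an adjusted p of 0.05 by limma under any alternative run (0 of 10, or 0 of 9 with detection on at least 5 arrays, where Foxa2 was not tested), and the smallest adjusted p of any difference of a member was 0.186. Of the 10 differences given singly, 9 kept their sign throughout. The exception, Gata4 in feed G minus feed B, became 0.22 with each array scaled to its median and 0.0062 with the series table, and was between -0.60 and -0.05 without 1 mouse. Among the 20 other differences, 15 changed sign in at least 1 setting (39 of 338 recomputed values). Median scaling moved the median of all genes to 0.41, 0.53 and 0.11 in feed K minus feed B, feed G minus feed B and feed G minus feed K, and the series table to 0.21, 0.30 and 0.07. Gata4 in feed G minus feed K had an unadjusted limma p under 0.05 in all 17 settings (log2 difference from -1.47 to -1.03) and in feed K minus feed B in 15 of 17 (0.69 to 1.34). The median SD of the members was 0.56 with median scaling (all genes 0.44) and 0.48 with the series table (0.39). The number of relations with tissue levels that passed was 12 by r and 6 by rho with median scaling, 4 by rho with the series table, and 0 to 1 by r and by rho without 1 mouse. The cause of these moves was not tested. Values relative to the epithelial genes were an alternative chosen after seeing the data. The exact permutation test was run for members only. No paired analysis was run, because each array holds a different mouse and the labels give no pairing between feeds. Foxa2 is limited by signal near background.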
